A study of Mus musculus with 14 samples.

Results

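The genes described are the cytoplasmic actins Actb and Actg1 and genes of proteins that bind actin monomers or hand them over. The latter are the beta-thymosins Tmsb4x and Tmsb10, the profilins Pfn1 and Pfn2, the cofilins Cfl1 and Cfl2, and the cyclase-associated protein gene Cap1. The cofilin helper Wdr1, which acts on filaments, is described with them. All were taken by name, 10 genes of the 35271 in the deposited table, and all 10 were found. The table holds RPKM, reads scaled to the length of the gene and the read total of the cell, in 14 single cells labelled as mesangial, the cell type that sits between the capillaries of a kidney glomerulus, contracts and lays down matrix. All came from 1 wild-type male C57BL/6 mouse (spelled C56BL/6 in the sample labels), 8 weeks old, and were separated on a Fluidigm C1, an instrument that captures and lyses cells in chambers of their own. The cells form 1 group, so no groups were compared, no p-value was computed, and every spread given is that between cells of this animal.

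Actin exists as monomers and as filaments, and cells build and dismantle filaments by moving monomers between these states. Beta-thymosins hold monomers in reserve, profilins carry them to growing filament ends, cofilins sever old filaments and return monomers, Wdr1 (also called AIP1) speeds the severing of cofilin-bound filaments, and cyclase-associated proteins help free monomers from cofilin and reload them with ATP. Mesangial cells use an actin and myosin apparatus to hold the glomerular capillary loops.

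Actb was the highest of the 10 genes in every cell, and Tmsb4x the next highest in every cell. These 2 members were detected, at an RPKM of at least 1, in all 14 cells, as were 0.454% of all genes in the table. At an RPKM of at least 10 they were again the 2 members found in every cell (0.204% of all genes), and 6 members were above 0 in every cell (2.96% of all genes). Apart from Pfn2, listed at 0 throughout, and Cap1, detected in 3 cells, the remaining members were at an RPKM of 10 or more in 8 to 13 of the cells, with lower values elsewhere. The reads behind the values were recovered from the steps of the RPKM values, and the read totals were 6.60 M to 23.8 M per cell. At these totals 3 reads on a gene of 1 kb equal an RPKM of 0.126 to 0.455, a floor that covers counting error only.

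The cell type label was checked against markers. Of 9 mesangial markers, 6 to 8 were at an RPKM of 10 or more in each cell. GL_M_30 had 10 of 13 endothelial markers at this level and GL_M_55 had 5 of 11 podocyte markers, against at most 5 and at most 2 in the other cells, and none of 6 proximal tubule markers reached it in any cell. Of 7 smooth muscle markers, and of 7 macrophage and leukocyte markers, at most 1 reached it in a cell. Among the latter this was Fcer1g, at 923 in GL_M_85. Genes detected per cell ran from 1770 in GL_M_60 to 5277 in GL_M_36. Extremes of Actb, Tmsb4x, Cfl1 and the sums that rest on GL_M_30 or GL_M_55 are given with and without them.

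The 2 actin mRNAs are close in sequence, which bears on how far reads can be assigned to either, so the opening of their coding sequences is shown. In GENCODE M21 on GRCm38, Actb lies on the minus strand at chr5:142903115-142906754 and Actg1 on the minus strand at chr11:120345690-120348542. The first 60 coding bases differ at 9 positions, in capitals, and the coding sequences of 1128 bases are equal at 1000 positions (88.7%), with a longest run of 62 equal bases.
Actb: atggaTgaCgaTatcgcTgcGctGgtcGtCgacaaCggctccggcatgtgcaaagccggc
Actg1: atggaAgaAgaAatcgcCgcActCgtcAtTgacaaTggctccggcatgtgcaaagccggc

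The beta-thymosins are small enough to show whole, and they lie far apart in level. Tmsb4x is at chrX:167207093-167209315 and Tmsb10 at chr6:72957347-72958748, both on the minus strand. Their coding sequences have 135 bases each, stop codon included, and are equal at 95 positions (70.4%), with no run of equal bases over 10. Capitals mark the 40 bases that differ.
Tmsb4x: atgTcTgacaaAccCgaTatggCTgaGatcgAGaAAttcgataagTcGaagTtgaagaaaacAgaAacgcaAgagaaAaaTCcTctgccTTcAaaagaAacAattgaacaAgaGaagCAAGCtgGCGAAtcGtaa
Tmsb10: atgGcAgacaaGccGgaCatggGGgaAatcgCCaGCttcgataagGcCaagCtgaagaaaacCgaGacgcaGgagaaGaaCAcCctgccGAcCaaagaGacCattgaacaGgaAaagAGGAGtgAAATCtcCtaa

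**Figure D1:**
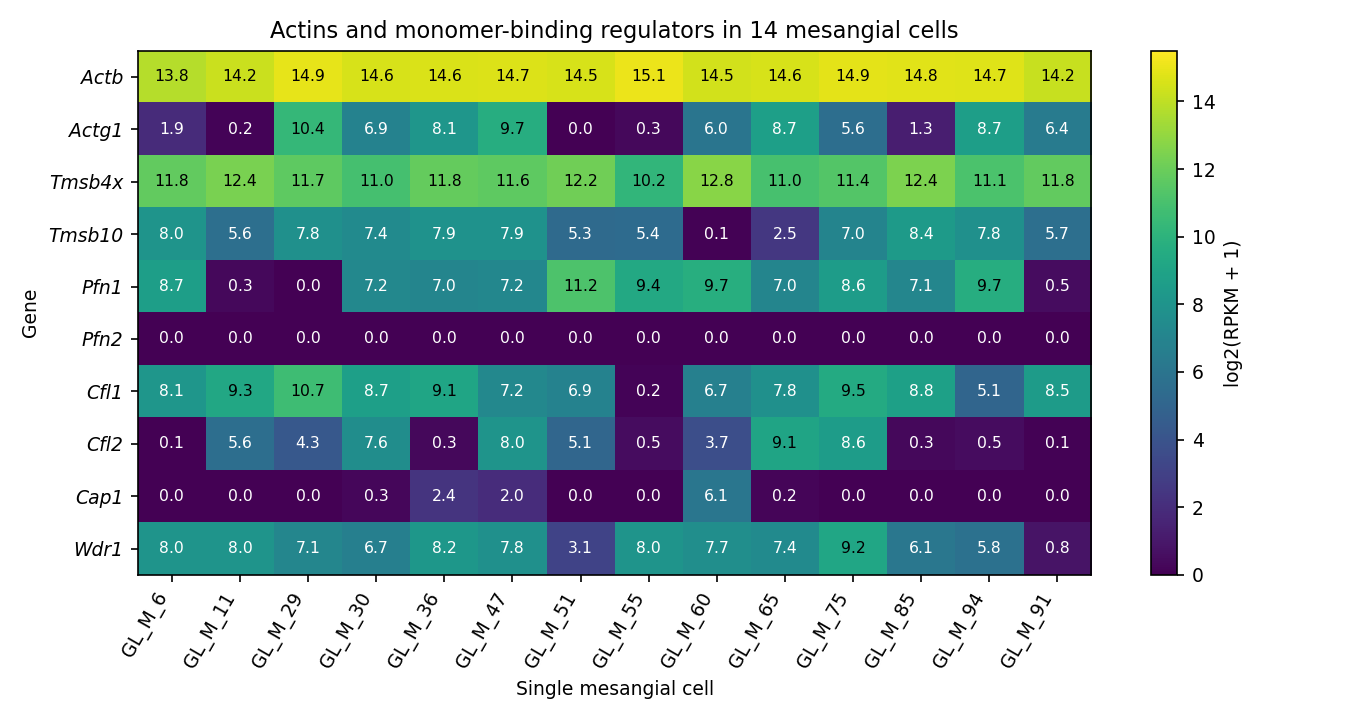
Level of the 10 genes (rows) in each of the 14 cells (columns), as log2(RPKM + 1), with the value printed in each tile. Actb and Tmsb4x are high in every column, Pfn2 is at 0 in every column, and the other rows hold high and near-zero tiles side by side.

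Actb, the cytoplasmic beta-actin, had an RPKM of 14208 in GL_M_6, the lowest cell, a median of 24899 and 34125 in GL_M_55, the highest. The mean was 25025 ± 5253 (SD, n = 14 cells of 1 mouse), and the highest cell was 2.40-fold above the lowest. It had the highest RPKM of all genes in 10 cells and the next highest in GL_M_6, GL_M_11, GL_M_47 and GL_M_51, where the nuclear noncoding RNA Malat1 stood above it. Between 109674 and 513301 reads fell on Actb per cell, 1.36% to 3.26% of the cell's reads. Without GL_M_30 and GL_M_55 the highest RPKM was 30916 and the highest share of reads 2.96%, both in GL_M_29, and the range was 2.18-fold. Differences between cells include those of capture and amplification, which the files do not separate.

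Actg1, the gamma form of cytoplasmic actin, had a median RPKM of 74.2 and was uneven over cells. It reached 1305 in GL_M_29 and 821 in GL_M_47, lay between 47.3 and 421 in 7 further cells, and was at 2.75 in GL_M_6 and 1.51 in GL_M_85. GL_M_11 and GL_M_55 had 1 and 2 reads and GL_M_51 had none. Actg1 was thus detected in 11 of 14 cells (78.6%, exact 95% Clopper-Pearson interval 49.2% to 95.3%), and the 3 cells without it, GL_M_11, GL_M_51 and GL_M_55, had Actb at 19453, 23797 and 34125. Actb made up 95.95% (GL_M_29) to 100% (GL_M_51) of the summed RPKM of the actins, with a median of 99.6%.

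Tmsb4x, thymosin beta 4, ranged 5.82-fold, with an RPKM of 1186 in GL_M_55, a median of 3355 and 6897 in GL_M_60. Its mean was 3529 ± 1589 (SD, n = 14), and it stood between place 5 and place 94 among all genes of a cell, with a median place of 11.5. Without GL_M_30 and GL_M_55, the lowest value was 2015 and the last place 32, both in GL_M_65, and the range was 3.42-fold. Tmsb4x made up 54.7% to 89.4% of the summed RPKM of the 8 members that are not actins.

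Tmsb10, thymosin beta 10, had a median RPKM of 150, a lowest value of 0.0725 in GL_M_60, which is 1 read, and a highest of 346 in GL_M_85. It was at 1 or more in 13 cells and at 10 or more in 12, GL_M_65 being low with 4.61. The cell nearly without Tmsb10 was the cell with most Tmsb4x, a pairing picked with the values in view. GL_M_85, the cell with most Tmsb10, had the next highest Tmsb4x, 5485, and Spearman's rho of the pair over 14 cells was 0.073. Tmsb4x was 90.8% (GL_M_94) to 99.999% (GL_M_60) of the pair, with a median of 94.8%, so it exceeded Tmsb10 in all 14 cells.

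**Figure D2:**
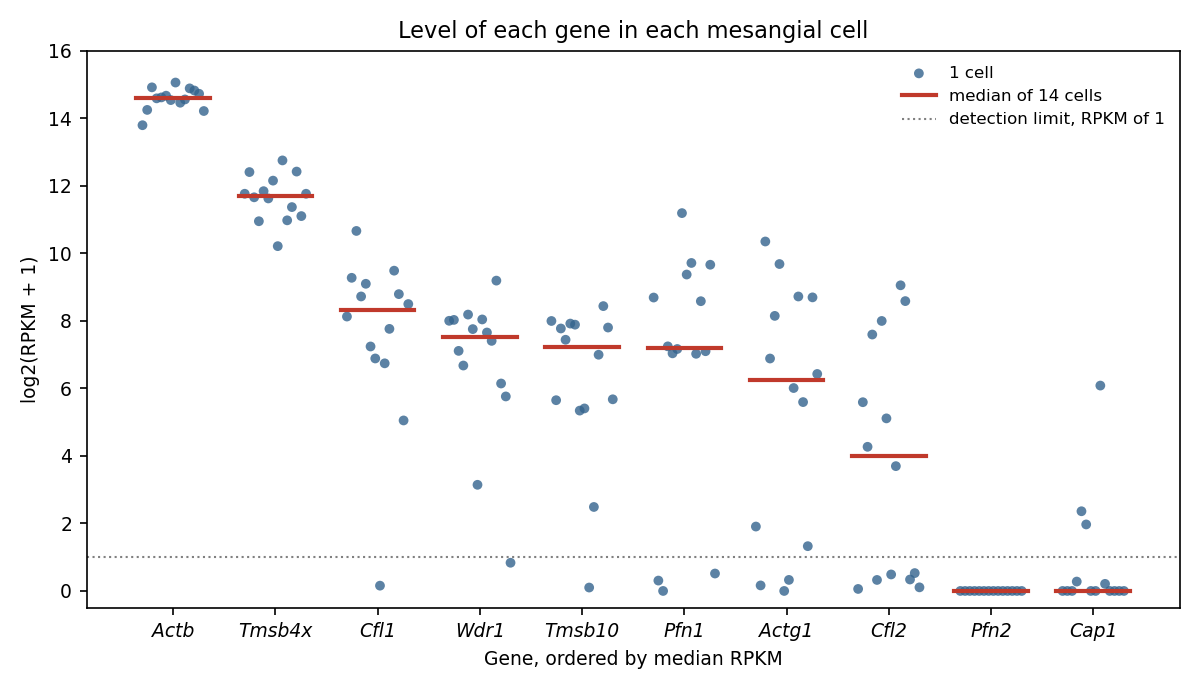
Each point is 1 cell, the red bar is the median of the 14 cells, and the vertical axis is log2(RPKM + 1). Actb and Tmsb4x form tight groups, whereas Pfn1, Actg1 and Cfl2 split into cells at 10 RPKM or more and cells near 0, with few values between.

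Pfn1, profilin 1, lies at chr11:70651850-70654644 on the minus strand, and its RPKM had a median of 147 and a highest value of 2337 in GL_M_51. Values between 129 and 2337 were found in 11 cells. The other 3 had next to none, with 8 reads in GL_M_91, 2 in GL_M_11 and 0 in GL_M_29, although their read totals were 17.7 M, 8.04 M and 9.24 M. No Pfn1 value lay between an RPKM of 0.430 and 129.

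Pfn2, the profilin known from neurons, had no read in any of the 14 cells. The exact upper limit for a share of 0 of 14 cells is 23.2%, and 57.1% of all genes in the table were likewise listed at 0 in every cell. The remaining profilin genes of the mouse, Pfn3 and Pfn4, were at 0 throughout as well. A profilin mRNA was therefore detected in 11 of 14 cells, always as Pfn1.

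Cfl1, the non-muscle cofilin, had an RPKM of 0.115 in GL_M_55, which is 1 read, a median of 320 and 1620 in GL_M_29. It was at 10 or more in 13 cells, the lowest of these being GL_M_94 with 32.1. Leaving out GL_M_30 and GL_M_55 kept the median at 320 and took the SD of log2(RPKM + 1) to 1.51, against 2.56 over 14 cells.

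Cfl2, the cofilin known from muscle, had a median RPKM of 15.1 and a highest value of 530 in GL_M_65. It was at 10 or more in 8 cells, of which GL_M_60 was the lowest, and the other 6 cells had 1 to 10 reads each, equal to an RPKM of 0.0421 to 0.443. Every cell with Cfl2 at 10 or more also had Cfl1 at 10 or more, 5 cells had Cfl1 alone at that level, and none had Cfl2 alone. Cfl2 stood above Cfl1 in GL_M_47 (254 against 150) and GL_M_65 (530 against 216), and in GL_M_55 both were below 1. Over the 13 cells whose cofilin sum was at least 1, Cfl1 was 29.0% to 99.98% of the pair, with a median of 92.9%.

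Dstn, destrin, which belongs to the same severing family and is not among the 10 genes, was set beside the cofilins. Its RPKM was 1127 in GL_M_60, where Cfl1 was at 106, and 39.0 in GL_M_55, the cell with 1 Cfl1 read. In 8 of the other 12 cells Dstn was below 10. At least 1 of Cfl1, Cfl2 and Dstn was at 10 or more in 14 of 14 cells (exact 95% Clopper-Pearson interval 76.8% to 100%), a set put together after the values were seen. The sum of the 3 genes ran from 32.8 in GL_M_94 through a median of 576 to 1731 in GL_M_29.

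**Figure D3:**
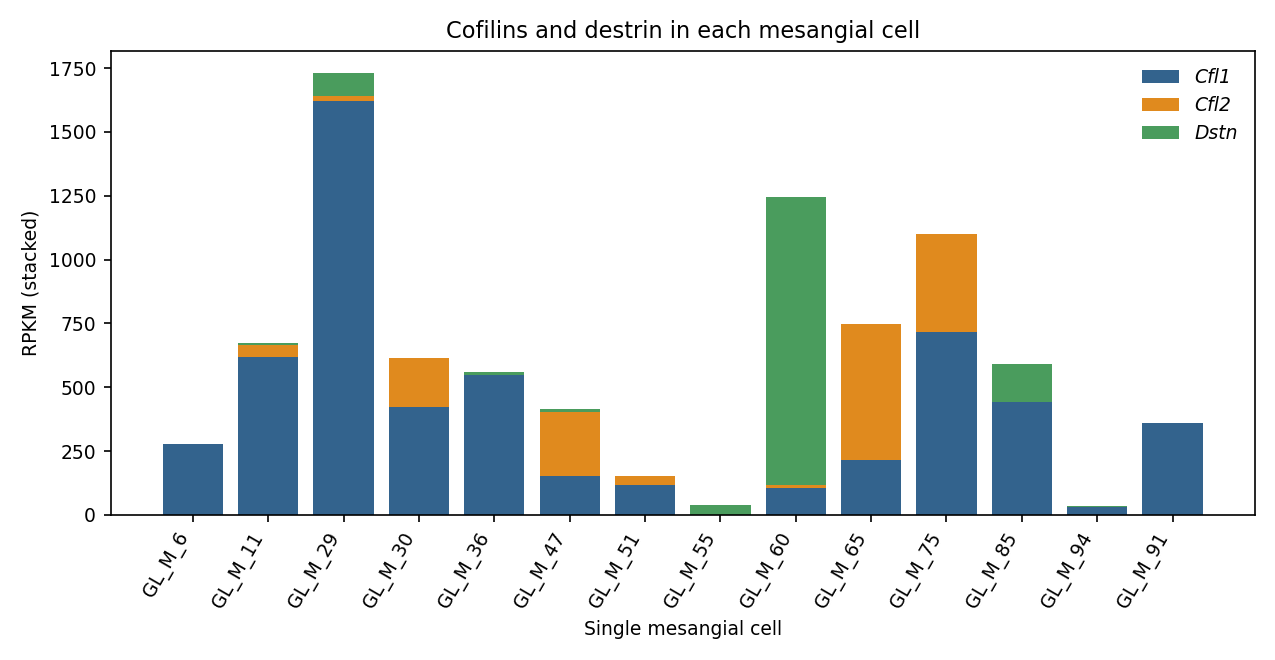
Stacked RPKM of Cfl1, Cfl2 and Dstn in each of the 14 cells. Cfl1 fills most of the bar in 10 cells, Cfl2 most of it in GL_M_47 and GL_M_65, and Dstn most of it in GL_M_55 and GL_M_60.

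Wdr1, at chr5:38526813-38563221 on the minus strand, had an RPKM of 0.784 in GL_M_91, a median of 185 and 584 in GL_M_75. In all, 12 cells lay between 53.2 and 584, and GL_M_51 was at 7.84. In GL_M_55, the cell with 1 Cfl1 read and 9 Cfl2 reads, its cofilin helper Wdr1 was at 262, which is among the upper values of the 14 cells.

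Cap1, on the minus strand at chr4:122859047-122886056, had an RPKM of 66.8 in GL_M_60 and was at 4.14 in GL_M_36 and 2.92 in GL_M_47. GL_M_30 and GL_M_65 had 4 and 2 reads, and the other 9 cells had none. GL_M_36 and GL_M_47 were the cells with the most genes detected, and GL_M_60 was the one with the fewest and the deepest read total. The exons of Cap1 overlap those of Ppt1 on the opposite strand, a gene with an RPKM of up to 382 and 5 cells at 1 or more. The genes share 2.21% of the 50-base stretches of Cap1, and no source used here says whether strand was used in counting, so reads in that stretch may belong to either. The totals of the genes differed in single cells: GL_M_60 had 2351 Cap1 reads and no Ppt1 read, and GL_M_91 had 0 Cap1 reads and 3861 of Ppt1. Where within the genes these reads lie cannot be read from totals.

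Set in order of their median RPKM, the genes ran Actb, Tmsb4x, Cfl1, Wdr1, Tmsb10, Pfn1, Actg1 and Cfl2, with Pfn2 and Cap1 at a median of 0. Actb stood above Tmsb4x, and Tmsb4x above Cfl1, in 14 of 14 cells. Below them neighbours were not separated over cells: Cfl1 was above Wdr1 in 10 cells, Wdr1 above Tmsb10 in 7, Tmsb10 above Pfn1 in 7, Pfn1 above Actg1 in 9 and Actg1 above Cfl2 in 8.

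The levels per length depend on the length used. The RPKM values rest on 956 bases for Actb and 777 for Tmsb4x, whereas the longest annotated transcripts have 1920 and 864 bases. Per kilobase of the longest transcript, an alternative chosen after seeing the data, the Actb median was 12398 and the Tmsb4x median 3017. The order of the 8 medians above 0 was the same on this scale.

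The balance between actin and monomer-holding transcripts varied several-fold. The summed RPKM of Actb and Actg1 divided by that of Tmsb4x and Tmsb10 was 3.28 in GL_M_60, 7.21 at the median and 27.8 in GL_M_55. Without GL_M_30 and GL_M_55 the highest ratio was 12.1, in GL_M_65, and the lowest cofilin sum 32.6, in GL_M_94. GL_M_55 thus combined the highest Actb, the lowest Tmsb4x and the lowest cofilin sum of the 14 cells, and it was also the cell with most podocyte markers (summed RPKM 2178, against 0.427 to 516 in the others). The part of that marker signal in its actin values was not tested.

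**Figure D4:**
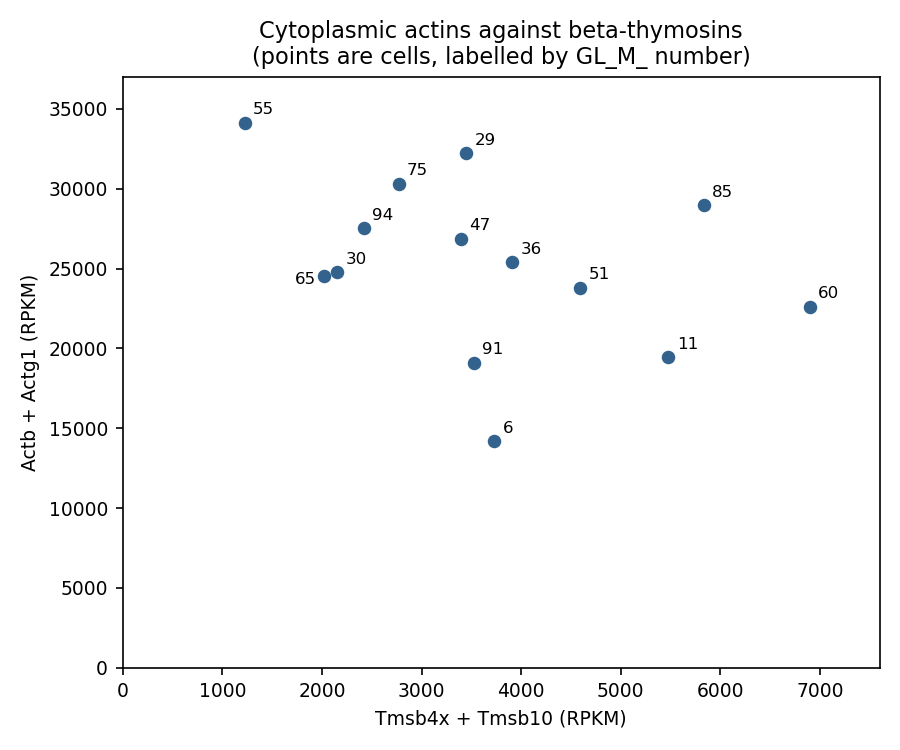
Summed RPKM of the cytoplasmic actins (vertical) against that of the beta-thymosins (horizontal), 1 point per cell, labelled by the number in the cell's name. GL_M_55 lies at the upper left with 34125 and 1227, and GL_M_60 at the far right with 22609 and 6898.

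All 10 genes together took 3.32% (GL_M_6) to 6.81% (GL_M_55) of a cell's summed RPKM and 1.79% to 3.59% of its reads. Without GL_M_30 and GL_M_55 the highest share of summed RPKM was 6.50%, in GL_M_29. The number of members at an RPKM of 10 or more per cell was 8 in 4 cells, 7 in 4, 6 in 4 and 5 in GL_M_55 and GL_M_91. Over the 14 cells, 12.3% of the values of all 15121 genes above 0 in some cell were at this level. Tmsb4x, Pfn1, Cfl1 and Wdr1 were all at 10 or more in 9 of 14 cells. Each of the other 5 had at least 1 of them below 10. This was Pfn1 in GL_M_11, GL_M_29 and GL_M_91, Cfl1 in GL_M_55, and Wdr1 in GL_M_51 and GL_M_91.

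Few values of these genes lay between an RPKM of 1 and 10. This was the smallest of the classes below for all genes too, though less far below the class at 10 or more. Of the 126 values of the 9 members above 0 in some cell, 94 (74.6%) were at 10 or more, 6 (4.76%) between 1 and 10, 15 (11.9%) above 0 but below 1, and 11 (8.73%) at 0. Over all 15121 genes above 0 in some cell, 12.3% of values were at 10 or more, 7.29% between 1 and 10, 21.6% above 0 but below 1, and 58.9% at 0. The 15 values above 0 and below 1 stood for 1 to 41 reads. With 1 cell per library and amplified cDNA, a transcript that was present and not captured cannot be told apart from one that was absent.

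The SD over cells of log2(RPKM + 1) was 0.33 for Actb and 0.68 for Tmsb4x, and 2.23 for Wdr1, 2.39 for Tmsb10, 2.56 for Cfl1 and 3.52 for Cfl2. For the members at 0 in some cells it was 1.71 for Cap1, 3.70 for Pfn1 and 3.79 for Actg1. Of the 7976 genes whose mean RPKM was 1 or more, Actb had the smallest SD and Tmsb4x stood at place 22, while Pfn1 and Actg1 were near the other end at places 7447 and 7578. The median over these genes was 2.30, and over the 9 members that passed this filter 2.39. Few genes are as high as these: only 7 genes, Actb and Tmsb4x included, had a mean log2 level at least that of Tmsb4x. Their SDs ran from 0.33 (Actb) to 1.01, with a median of 0.65. Tmsb4x held place 5 of these 7 from the smallest SD, so beside genes of its level its spread was not small. Among the 200 genes nearest in level, Wdr1 held place 25 and Tmsb10 place 27 from the smallest SD, Cfl1 place 73, Cfl2 place 101, Actg1 place 135 and Pfn1 place 158. Single cells decided some of these places: Tmsb10 held place 9 without GL_M_60, Wdr1 place 16 without GL_M_91 and Cfl1 place 33 without GL_M_55.

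The narrow spread of Actb and Tmsb4x among the 7976 genes depended on the scaling. RPKM scales each cell to its read total. Dividing each cell instead by the median ratio over the 1045 genes above 0 in every cell gave factors from 0.381 (GL_M_91) to 2.98 (GL_M_36). The SD was then 0.95 for Actb and 1.22 for Tmsb4x, at place 444 and place 1198 among the 7976 genes, while the SDs of Wdr1, Tmsb10, Cfl1 and Cfl2 were 1.84, 2.17, 2.51 and 3.33. GL_M_36 and GL_M_47 had the highest factors and the most genes detected, and GL_M_51, GL_M_60 and GL_M_91 the lowest factors and the fewest genes. Only 160 genes of the table reached an RPKM of 1 in every cell, so most of the 1045 behind the factors fell below 1 in some cell. Which of the 2 scalings is closer to the content of the cells was not tested.

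**Figure D5:**
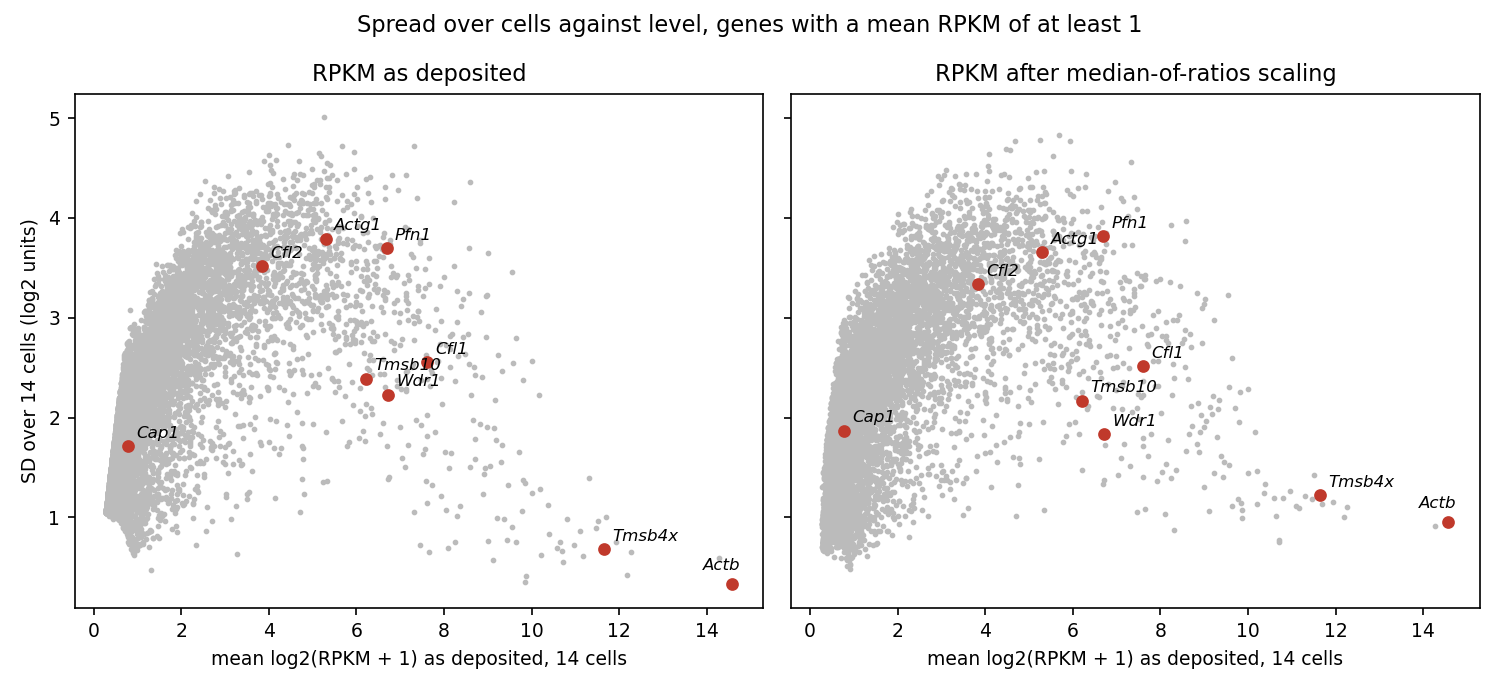
SD over the 14 cells against the mean of log2(RPKM + 1) for the 7976 genes whose mean RPKM was 1 or more (grey) and the 9 members among them (red), with RPKM as deposited on the left and after median-of-ratios scaling on the right. Actb has the smallest SD on the left, at 0.33, and sits at 0.95 on the right.

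With RPKM as deposited, relations between members over cells were weak. Among the 15 pairs of the 6 members above 0 in every cell, Spearman's rho over 14 cells ran from -0.446 for Actb with Tmsb4x to 0.345 for Tmsb10 with Cfl1. Cfl1 with Cfl2 was at 0.116, and Cfl1 with its helper Wdr1 at 0.235. These are descriptions of cells that share 1 animal, and all values of a cell share its read total: rho with the read total was -0.446 for Actb, 0.503 for Tmsb4x and -0.468 for Wdr1. They also depended on the scaling: with the median-of-ratios factors rho was 0.675 for Actb with Tmsb4x and -0.688 for Tmsb10 with Wdr1, against -0.446 and 0.0549 as deposited. Pearson's r of log2(RPKM + 1) was 0.529 for Tmsb4x with Cfl1, against a rho of 0.209. The sign of 6 of the 15 pairs changed under at least 1 alternative, so no direction is read from them.

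The genes whose pattern over the 14 cells was most like that of each member were sought among 888 other genes that were above 0 in every cell and averaged an RPKM of 10 or more. For Actb they were Tra2b, a splicing regulator, with a rho of 0.873, the ribosomal protein gene Rpl10 (0.811) and Paip2 (0.798). For Tmsb4x they were Amotl1 (0.833), S100a11 (0.815) and the G protein subunit Gnai2 (0.798). Tmsb10 was most like Atp5b, a subunit of the mitochondrial ATP synthase (0.864), Trmt1l (0.820) and Swt1 (0.811). Actg1 was most like Cdc23 (0.833), Rfc1 and Ggt5 (both 0.785).

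The highest rho for the other members was 0.793 for Wdr1 (with Acot2, then Gm17131 at 0.767 and Srp72 at 0.736), 0.767 for Cfl1 (with Usp40, then Gm14565 at 0.745 and Arglu1 at 0.714), 0.749 for Pfn1 (with G530011O06Rik, then Rbm5 at 0.723 and Rbms1 at 0.705) and 0.710 for Cfl2 (with Pcf11, then Yars at 0.666 and Rpsa at 0.653). Picking the highest of 888 values over 14 cells favours high ones. Of the genes named, Usp40, Pcf11 and Cdc23 had a median RPKM of only 0.241, 0.336 and 0.927. The other genes named had medians above 1, but most fell below 1 in their lowest cell. Ranks at such values rest on few reads, and the search was not repeated with another scaling. Of the 67 actin list genes described next, 3 passed the filter of this search.

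Genes outside the 10 that act on the same monomers and filaments were taken from 9 lists. Of 68 listed genes 67 were in the table, and 0 were detected in every cell, 38 in some cells and 29 in none. The count of 0 in every cell is close to the share of 0.454% over all genes. Of the 67, 16 (23.9%) were listed at 0 throughout, against 57.1% of all genes. At an RPKM of 10 or more in at least 9 cells stood 7 of the 10 members, 2 of the 67 listed genes (2.99%), which were Twf1 and Capza2, and 1.77% of all genes. The limit of 9 cells is the count of Actg1, the lowest of these 7 members. Members and lists were chosen with earlier results of these data known, so the contrast partly follows from the choice of genes and limit.

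Among the 5 other actins, none was detected in more than 1 cell. The smooth muscle actins Acta2 and Actg2 had their highest RPKM, 1.15 and 1.20, in GL_M_30. Acta1, Actc1 and Actbl2, the actins of skeletal and cardiac muscle and an actin-like gene, were below 1 in every cell.

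Twf1, twinfilin 1, which binds monomers and filament ends, was the highest of 10 other members of the monomer-binding families. Its median RPKM was 624, with 2526 in GL_M_29 and 10 cells at 10 or more. Set beside the 3 cells without profilin, Twf1 was at its highest in GL_M_29, at 1647 in GL_M_91 and at 0.882 in GL_M_11. GL_M_11 was the only cell of the 14 with neither Pfn1 nor Twf1 at 10 or more, a comparison made after the values were seen. Twf2 reached 129 in GL_M_94, while Cap2, Pfn3, Pfn4, Tmsb15a, Tmsb15b1, Tmsb15b2 and Tmsb15l were at 0 in all cells.

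Cofilin is switched off by the kinases of the Limk and Tesk families and switched on by slingshot phosphatases. Limk1, Limk2, Tesk1 and Tesk2 were below an RPKM of 1 in all 14 cells, as was Ssh3. The phosphatase genes Ssh2 and Ssh1 were detected in 6 and 3 cells, with 285 in GL_M_29 and 109 in GL_M_75. Of the 5 other proteins with a cofilin-like domain, Gmfb reached 826 in GL_M_60 and was at 10 or more in 6 cells, Dbnl and Dbn1 peaked at 50.2 and 56.2, and Cotl1 and Gmfg were below 1 everywhere.

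The coronins, which work with cofilin on older filaments, had low medians, the highest being 0.423 for Coro7, 0.149 for Coro2a and 0.0691 for Coro1c. Coro1b, picked with its values in view, reached 1295 in GL_M_94, the cell with the least cofilin and destrin. Coro1a and Coro6 were below 1 in all cells.

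Formins and related proteins take monomers from profilin. Of 17 listed, 12 were detected in some cell, led by Diaph1 (median 3.01, up to 249), Daam2 (median 1.28, up to 109) and Fhod1 (median 1.01, up to 859). Daam1, Fmnl1, Fhod3, Spire2 and Cobl were below 1 in every cell.

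Of 8 genes that cap the growing ends of filaments or sever filaments, the capping protein subunit Capza2 had a median RPKM of 241. It reached 2526 in GL_M_6 and was at 10 or more in 10 cells. Gelsolin, Gsn, had a median of 2.99 and a highest value of 928 in GL_M_11, and Capzb a median of 2.61. Capg, also picked with its values in view, reached 1861 in GL_M_55 and no more than 1.02 elsewhere. Scin and Vil1 were below 1 throughout.

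Free actin monomers hold back the coactivators Mrtfa and Mrtfb of the transcription factor SRF. Srf was listed at 0 in all 14 cells, Mrtfa was detected in 1 cell and Mrtfb in 3, with up to 133 in GL_M_11. Among 5 genes that oxidise actin or reverse this, Mical2 had the highest median, 1.17, and Mical3 and Msrb2 were below 1 in every cell.

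The promoters of the members were searched for the CArG box, the motif bound by SRF and known from actin genes, and for TATAAA, on both strands of RefSeq windows of 300 bases on GRCm38.p6; matches of the motifs may overlap each other. Windows were matched for the 9 members other than Actb, 11 windows in all, so Actb was not searched. A CArG box was found in 1 of these 9, Actg1, and in 1.63% of 32851 windows, and TATAAA in 0 of the 9 and 13.6% of windows. The Actg1 sequence upstream of the GENCODE start is shown because it holds that match. It covers chr11:120348543-120348745 on the minus strand, and the box, in capitals, begins at position -90 from the RefSeq start.
Actg1 promoter: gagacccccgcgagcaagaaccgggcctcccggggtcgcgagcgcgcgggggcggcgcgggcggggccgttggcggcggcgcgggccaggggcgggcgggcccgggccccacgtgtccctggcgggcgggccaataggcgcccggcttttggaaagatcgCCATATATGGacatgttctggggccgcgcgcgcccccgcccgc
A match is a property of the sequence and says nothing of binding in these cells.

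Several members share sequence with other genes, and no source used here says how the authors treated reads that map to several places. In GENCODE M21 transcripts, 37.4% of the 50-base stretches of Actg1 also occur in another gene, 27.0% of Tmsb10, 18.3% of Cfl1 and 9.12% of Actb, against 0% for Tmsb4x, Pfn1 and Pfn2. The value of Actg1 is therefore less certain than that of Tmsb4x or Pfn1. Its pseudogenes Gm12715, Gm8399 and Actg-ps1 had an RPKM of at most 0.587 in any cell.

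Of the 50-base stretches of Cfl1, 12.9% occur in Snx32 and 6.46% in the pseudogene Gm6180. The exons of Snx32 overlap those of Cfl1 on the opposite strand, and its RPKM was at most 1.58 in any cell. The Cfl1 pseudogene Gm6180 had 363 reads over all cells, against 68079 for Cfl1, and followed it over the 14 cells with a rho of 0.956. Gm9844, a copy of Tmsb10, had 155 reads, against 12117 for Tmsb10, with a rho of 0.766. Lrrc58, which shares 179 stretches of 50 bases with Actb, was detected in 14 of 14 cells between 2.04 and 785, with a rho of -0.152. For Gm6180 and Gm9844 the reads are few beside those of the parent gene, and whether they came from it was not tested.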

How the data were processed

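The authors deposited RPKM per Ensembl gene for 14 single cells, all of which were used. The submitters' processing notes name TopHat2 2.0.12, HTSeq 0.6.1 and mm10. No annotation release, read length or handling of multiply mapped reads is stated in the sources used here. RPKM is scaled to a cell's read total and to 1 length per gene, so a cell with a few very abundant transcripts shows lower values for the rest. It carries no total, so read totals and gene lengths were solved as whole numbers from the steps of the values. For each gene the smallest length that gave whole reads in every cell was taken, and 1 was found for 15120 of 15121 genes above 0. At genes above 0 in few cells such a length is easily found, so this count does not check the lengths. The reads added up to 97.8% to 99.97% of the totals. On simulated data for 14984 genes, 14 of 14 totals came back exactly. Lengths were sought there only at genes above 0 in at least 5 cells, and 296 of 300 came back exactly. At 52.4% of 7623 genes the length was the rounded mean of the transcripts in GENCODE M21, which also gave symbols (34488 genes) and coordinates.

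Levels are log2(RPKM + 1), which understates differences of low genes. Detected means an RPKM of at least 1, and 10 is a higher limit. Cells of 1 mouse are not replicates, so no test was made. Intervals are exact 95% Clopper-Pearson intervals over cells, and they cover only the sampling of cells of 1 mouse. The floor of 3 reads covers counting error only, and the labels mention no molecular identifiers. The members and lists were chosen with earlier results of these data known. Named were all members, of each wider list the 3 genes with the highest median and those below 1 in every cell, and for each member present the 3 most similar genes by Spearman's rho. Alternatives were pseudocounts of 0.1 and 10, other scalings, other limits, reads in place of RPKM, and each cell left out. Python 3.11.15, numpy 2.4.6, pandas 2.3.3 and scipy 1.17.1 were used.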

Additional observations from a re-analysis of the deposited data

How the results depend on the processing

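No paired analysis was possible because all 14 cells form 1 group from 1 mouse. The number of members detected in every cell was 2 at an RPKM of at least 1 or 10 and 6 at an RPKM above 0, where a single read is enough. The count of wider-list genes in every cell was 0 at both limits. The median pair shares moved by less than the SD over cells when computed from reads or with the longest transcript, the Cfl1 share being 83.7% from reads and 86.5% with the longest transcript, against 92.9%. With 1 cell left out these medians ranged from 99.55% to 99.7% for Actb, 94.1% to 95.4% for Tmsb4x, 91.4% to 95.8% for Cfl1 and stayed at 100% for Pfn1. Rescaling each cell to a fixed, higher RPKM sum raises all genes of a cell alike and put the mean log2 levels of Actb and Tmsb4x at 15.37 and 12.44, and the longest transcript put Actb at 13.57. For Cap1 it was -1.70 with a pseudocount of 0.1 and 3.60 with 10. A pseudocount of 0.1 took the SD of 7 of 9 members above its range with 1 cell left out, to 4.70 for Actg1 and 4.61 for Pfn1. The SD of Cfl1 fell to 1.45 without GL_M_55 and that of Actb lay between 0.25 and 0.34 with 1 cell left out. Values near 0 rest on too few reads to order cells by them.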
